A study of Bos taurus with 40 samples.

Results

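The 200 most abundant NONCODE transcripts of bovine oocytes are described here. They were chosen by a rule on measured values: of 22227 rows whose identifier starts with NONBTAG, the 200 with the highest mean level over the 4 whole-oocyte libraries were taken, out of 59051 rows in each count table. The level is CPM, the counts of a row per 1000000 counts of its library. In all, 8430 NONCODE rows had a count in an oocyte. The levels in oocytes therefore chose the members and are given as a description. The comparison of matched biopsies with oocytes reuses those levels, so its fitted values are printed as a description too, and nothing is read from them.

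NONCODE is a catalogue of noncoding RNAs, most of them long noncoding RNAs, which are transcripts with no recognised protein product. The growing oocyte stores RNA that is used through meiotic maturation and the first cleavages, before the embryo's own genome is transcribed in earnest. Most long noncoding RNAs have no assigned function, and none of the identifiers below comes with a gene name, a position or a sequence that could be used here. A role is therefore given only for the named rows whose counts run beside those of a member.

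Single bovine oocytes and ooplasm biopsies, small samples of the cytoplasm drawn from a single oocyte, were sequenced as poly(A) RNA. One set holds 4 whole oocytes and 4 ooplasm biopsies numbered 2, 3, 6 and 16. A second set holds 8 biopsies taken after in vitro maturation, 4 from oocytes whose embryos became blastocysts (BL: B20, B21, D24 and D27) and 4 from oocytes whose embryos stopped at cleavage (CL: B14, B23, D10 and D29). Granulosa cells of the same 8 follicles and 8 cumulus cell libraries were also counted. All samples are labelled diploid, and no age, breed or treatment separates the groups. Nothing states that the samples of a group came from separate animals, so a p-value measures only the spread between these samples.

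Totals, in units of 1000000 counts, were 13.4 to 23.8 in the 16 ooplasm libraries, and all 200 members had at least 5 counts in each of them, the lowest count being 55. H1FOO, the linker histone of the oocyte, was the only one of 19 oocyte markers on a fixed list to match a row by symbol. It stood at 533 to 1548 CPM in the ooplasm libraries, 0.234 to 34.2 CPM in granulosa cells and 0 to 0.109 CPM in cumulus cells. None of the 31 granulosa, cumulus, theca, blood and endothelium symbols matched a row, so other cell types could not be looked for by marker. In the bulk granulosa and cumulus samples, fewer cells of a type and less RNA per cell cannot be told apart.

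All 200 members are listed at 0 in all 8 granulosa and all 8 cumulus libraries. Only 6 NONCODE rows have a count in the granulosa table and 3 in the cumulus table, none of them a member, while 95.3% and 74.4% of Ensembl rows have one. Rows whose ooplasm counts lay close to those of a member did have counts there. TUG1, a long noncoding RNA first described in the retina, differed from NONBTAG006101.2 by at most 6.35% in every ooplasm library and had 289 to 6050 counts in granulosa and 1059 to 1651 in cumulus cells. In all, 10 members had a row that is no NONCODE row as closest partner, within 0.3 log2 (23.1%) in every ooplasm library. Each of those partners had a count in each of the 16 somatic libraries. Not all were high: ENSBTAG00000032347, the partner of NONBTAG009300.2, had 39 to 75 counts in cumulus cells. A 0 of a member in the somatic tables is thus given only as listed at 0, and members were not compared between ooplasm and somatic cells or between the fates within somatic cells.

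Within oocytes the set was steeply graded. The most abundant member, NONBTAG017444.2, stood at 5713 CPM in oocyte 2, 2906 in oocyte 3, 4923 in oocyte 6 and 3440 in oocyte 16, a mean of 4246 ± 1298 (SD, n = 4). Its mean was 74.6 times that of the member at rank 200. There were 6 members at 1000 CPM or more, 85 between 100 and 1000 and 109 under 100. The first 10 members held 39.8% of the members' summed CPM and the first 50 held 67.7%.

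**Figure D1:**
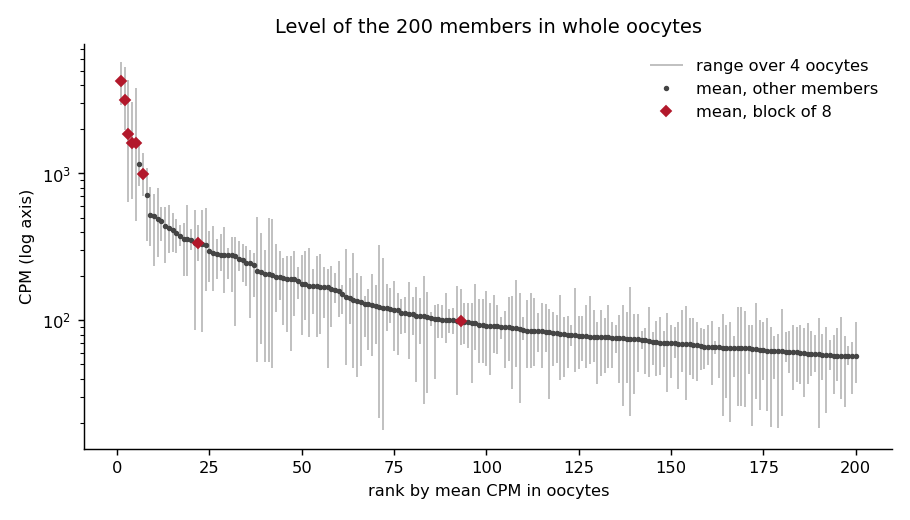
Mean CPM of the 200 members over 4 oocytes (log axis) against their rank, with grey lines from the lowest to the highest oocyte. Of the 8 members with neighbouring numbers (diamonds), 6 are among the first 7, and the means level off toward rank 200.

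The rule's border fell between rows of nearly equal level. At rank 200 NONBTAG003513.2 had a mean of 56.9 ± 27.6 CPM (SD, n = 4), from 97.8 in oocyte 2, 44.7 in oocyte 3, 37.5 in oocyte 6 and 47.5 in oocyte 16. Just outside the set, NONBTAG000208.2 had 56.7 ± 18.1 CPM (SD, n = 4). The difference between these means was far smaller than the spread of either row.

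A block of 8 members with neighbouring numbers, NONBTAG017437.2 to NONBTAG017442.2 with NONBTAG017444.2 and NONBTAG017445.2, together held 33.8% of the members' summed oocyte CPM. After NONBTAG017444.2, NONBTAG017440.2 was next, with 5352, 1968, 2893 and 2549 CPM in oocytes 2, 3, 6 and 16. NONBTAG017438.2 had 4307, 636, 1157 and 1351 CPM in the same order. Oocyte 2 stood apart at the top in both rows and oocyte 3 was the lowest.

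The other leading members of the block had the same extreme in oocyte 2. NONBTAG017439.2 ranged 8.13-fold among oocytes, from 471 CPM in oocyte 3 to 3829 in oocyte 2, with 1020 in oocyte 6 and 1094 in oocyte 16. NONBTAG017441.2 had 3093, 672, 1409 and 1269 CPM and NONBTAG017442.2 had 1381, 827, 1040 and 703 CPM in oocytes 2, 3, 6 and 16. The block was not one quantity counted 8 times: across the 16 ooplasm libraries, correlations of log2 CPM between its members ran from 0.307 to 0.998, as a description of libraries that share their depth.

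Of the 4 members outside the block among the first 10, 2 had another order. NONBTAG011863.2 was highest in oocyte 3, with 1684 CPM, against 822 in oocyte 2, 863 in oocyte 6 and 1298 in oocyte 16. NONBTAG004473.2 was lowest in oocyte 2, with 234 CPM, against 589, 726 and 492 in oocytes 3, 6 and 16. NONBTAG014617.2 had 1085, 345, 902 and 520 CPM, and NONBTAG003602.2 had 814, 321, 541 and 413 CPM, in oocytes 2, 3, 6 and 16. These last 2 were highest in oocyte 2 and lowest in oocyte 3, as NONBTAG017444.2 and NONBTAG017440.2 of the block were. Over the whole set, 119 of the 200 were highest in oocyte 2 and 145 were lowest in oocyte 3.

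**Figure D2:**
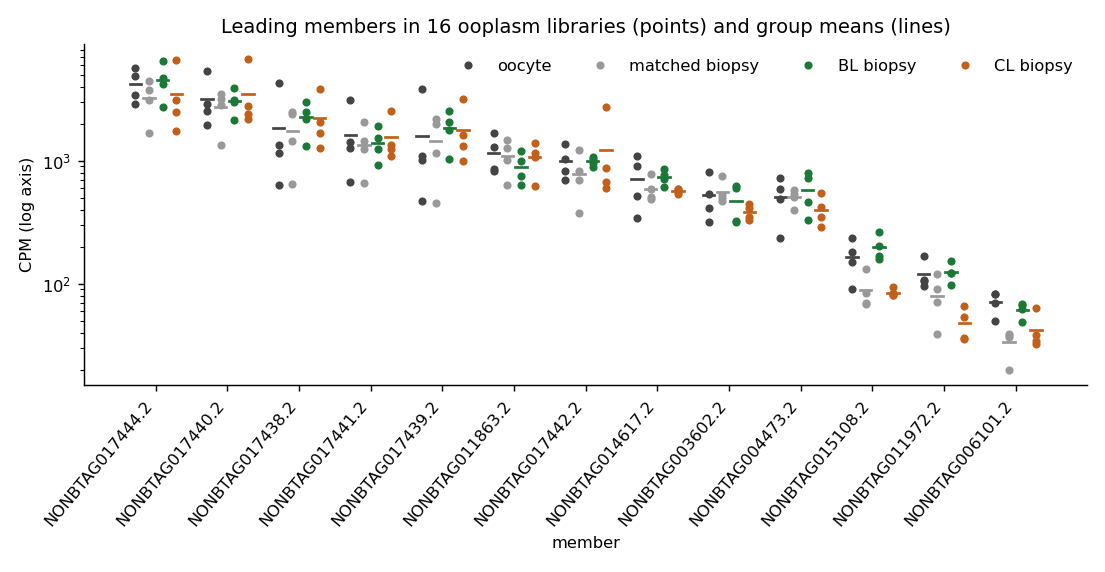
CPM (log axis) of the 10 most abundant members and of 3 members named in the comparisons, with 1 point per library and a line at each group's mean. The spread among 4 libraries of a group is wide in the block of 8, and NONBTAG015108.2 and NONBTAG011972.2 have BL and CL points that do not overlap.

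The spread among single oocytes was wide for most members. The median coefficient of variation (SD as a percent of the mean) was 41.1% over oocytes, 28.9% over the matched biopsies, 25.1% over BL biopsies and 30.9% over CL biopsies. The rule chose members on their mean over these same oocytes, which can favour rows lifted by a single high oocyte. The oocyte value therefore cannot be set against those of the biopsies, and nothing is read from the difference. Within the first 50 members, NONBTAG003811.2 varied least, at 320, 344, 444 and 386 CPM in oocytes 2, 3, 6 and 16 (14.6%). NONBTAG014051.2 varied most, at 496, 52.2, 142 and 133 CPM (96.0%), and oocyte 2 alone gave 60.2% of its total over the oocytes.

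Its numbered neighbour NONBTAG014052.2 took 65.4% of its total from oocyte 2, the largest such share of any member, with 325, 21.6, 76.3 and 73.9 CPM in oocytes 2, 3, 6 and 16. At the other end, chosen after its values were seen, NONBTAG009300.2 had the smallest variation of all 200 members, at 90.9, 114, 105 and 108 CPM (9.29%). The matched biopsies gave that row 120, 89.8, 100.6 and 113 CPM, within much the same range.

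Summed over the 200 members, the share of a library's counts was 5.84% in oocyte 2, 2.71% in oocyte 3, 4.36% in oocyte 6 and 3.57% in oocyte 16. The matched biopsies gave 4.29%, 2.72%, 3.74% and 4.52% in the same order. BL biopsies gave 4.41% in B20, 4.08% in B21, 4.39% in D24 and 4.18% in D27. CL biopsies gave 4.66% in B14, 3.35% in B23, 3.43% in D10 and 2.90% in D29, so B14 was above every BL biopsy and the other 3 were below every one.

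The block of 8 and the rest divided differently. In B14 the block alone took 2.63% of the counts, against 0.937% to 1.76% in the BL biopsies. The other members took 2.64%, 2.45%, 2.88% and 3.24% in B20, B21, D24 and D27, and 2.03%, 2.50%, 2.20% and 1.92% in B14, B23, D10 and D29. Outside the block the CL biopsies were lower, with B23 just above the lowest BL biopsy. NONCODE rows that are no members followed a like order, at 2.14% to 3.02% of counts in BL and 1.84% to 2.48% in CL biopsies.

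**Figure D3:**
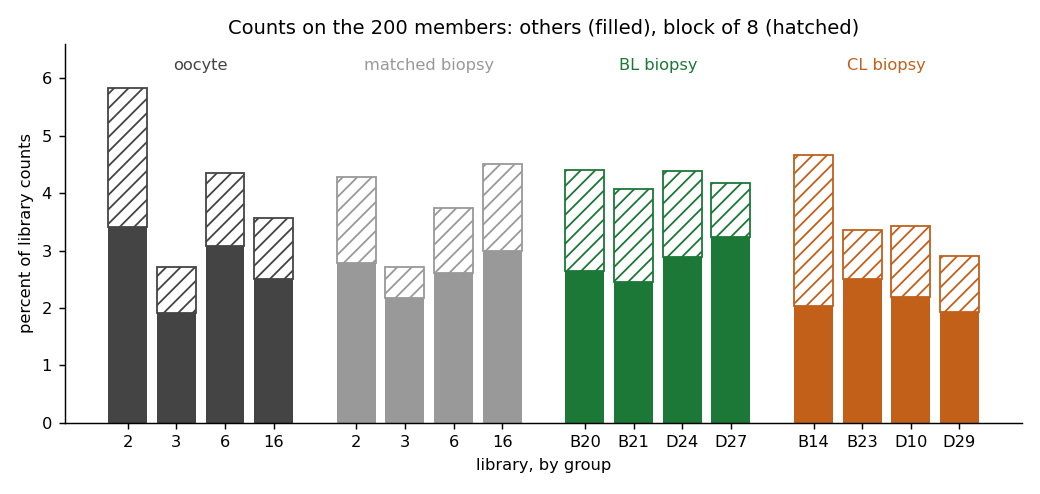
Percent of each library's counts on the 200 members, split into the block of 8 (hatched) and the other members (filled), for 16 ooplasm libraries. Oocyte 2 has the tallest bar (5.84%) and oocyte 3 and its biopsy the lowest (2.71% and 2.72%), and B14 is the CL biopsy with a large hatched part.

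Some members had counts close to those of another row in every ooplasm library. For each member the row with the closest counts was found, by the largest gap in log2(count + 1) over the 16 ooplasm libraries. A partner within 0.3 log2 in every library existed for 34 members (17.0%), against 7.04% of all 4847 rows at the members' level and 4.36% of the Ensembl rows among them. The partner was another member for 24 of the 34, an Ensembl row for 7, a row with a gene symbol for 2 and a LOC row for 1. No member had the same 16 counts as another row.

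NONBTAG009300.2 and ENSBTAG00000032347 summed to 33655 and 33654 counts over the 16 libraries. The second most abundant member, NONBTAG017440.2, summed to 944828 counts beside 942192 for ENSBTAG00000043570. NONBTAG002140.2 differed by at most 10.99% from RNF149, a ring finger protein gene, in every library. Whether these counts come from shared reads, overlapping models or strand was not tested, since row positions and the strand setting of the counting were not at hand. Their values may therefore not be those of a separate transcript.

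Neighbouring numbers also ran together. There were 41 pairs of members with consecutive numbers, covering 74 members, and the median correlation of log2 CPM over the 16 libraries was 0.96 in them, against 0.32 over all pairs of members. Of the 41 pairs, 31 reached 0.9. As an example chosen after its values were seen, NONBTAG010443.2 and NONBTAG010444.2 stayed within 5.28% of each other in all 16 libraries. NONBTAG010443.2 had 566, 85.4, 381 and 311 CPM in oocytes 2, 3, 6 and 16.

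The matched biopsies held largely the same leading rows as the oocytes. Of the 200 members, 175 (87.5%) were among the 200 most abundant NONCODE rows of the matched biopsies, 173 (86.5%) among those of the BL biopsies and 166 (83.0%) among those of the CL biopsies. NONBTAG017444.2 had 4471, 1694, 3117 and 3784 CPM in biopsies 2, 3, 6 and 16, and biopsy 3 was the lowest, as oocyte 3 was. NONBTAG010443.2, low in oocyte 3, had 352, 70.9, 256 and 344 CPM in biopsies 2, 3, 6 and 16.

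The comparison of matched biopsies with whole oocytes used the libraries of the rule, so it is given as a description and nothing is read from it. Its fits have no pair term unless this is said. With edgeR no member was called at an adjusted p under 0.05, and 0% of the 18540 rows tested were. At an unadjusted p under 0.05, 1 member was higher and 12 were lower in biopsies, against 3.13% and 2.41% of all rows. The log2 difference was positive for 57 members and negative for 143, with a median of -0.22 beside -0.03 over all rows. Of the 4055 rows at the members' level of 44.2 CPM or more, 34.0% were positive, with a median of -0.14, beside 28.5% of the members. DESeq2 called 1 member lower, against 0.306% of the 37247 rows with a count, including any that its own filter left without an adjusted p. When libraries were scaled by their totals alone, 87 were positive and 113 negative, with a median of -0.09 beside 0.11 over all rows. With the pair number as a block in edgeR, the median was -0.18 beside -0.11. Then 16 members were lower at an unadjusted p under 0.05, beside 738 of the 18540 rows.

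NONBTAG006101.2, the row beside TUG1, had 83.2, 49.4, 82.8 and 69.9 CPM in oocytes 2, 3, 6 and 16 and 38.9, 37.0, 38.4 and 19.97 CPM in the biopsies of those numbers. Every biopsy was below every oocyte. The log2 difference was -1.23 (SE 0.29), from oocyte levels that the rule favoured when they were high. TUG1 itself had -1.19 (SE 0.29). In all, 1 member was lower and 2 were higher without overlap of the 2 groups, against 1.4% and 2.25% of all rows.

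NONBTAG015108.2 stood at 181, 235, 151 and 90.7 CPM in oocytes and 133, 69.5, 67.8 and 84.8 CPM in biopsies 2, 3, 6 and 16. The groups overlapped, and the log2 difference was -1.10 (SE 0.37), and -0.72 without oocyte 3. In the other direction, NONBTAG008335.2 had 613, 286, 371 and 438 CPM in oocytes and 833, 808, 669 and 519 CPM in biopsies, a log2 difference of 0.62 (SE 0.25). NONBTAG008397.2 had 329, 181, 286 and 232 CPM in oocytes and 313, 337, 474 and 375 CPM in biopsies, a log2 difference of 0.41 (SE 0.25).

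The fate biopsies were not used by the rule, and they address which transcripts of the oocyte differ between oocytes that did and did not give a blastocyst. No single member passed the test in edgeR, and most members had a higher level in BL biopsies. The log2 difference, BL over CL, was positive for 169 of 200 members (84.5%), beside 48.3% of the 21174 rows tested. Its median was 0.43 over the members and -0.02 over all rows, and it ran from -2.96 to 1.78.

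At an adjusted p under 0.05 edgeR called 0 members and 0% of all rows. At an unadjusted p under 0.05, 58 members (29%) were higher in BL and 1 (0.50%) was lower, against 2.5% and 2.3% of all rows. Among all rows at the members' level of 25.2 CPM or more, 4.64% were higher and 4.09% lower. Among the other NONCODE rows at that level, 20.95% were higher and 0.952% lower, so the excess is not particular to the members. Without D27 the count of members higher was 36, beside 384 of 22460 rows tested. Without D29 it was 37, beside 547 of 22604 rows. DESeq2 called 12 members higher and 1 lower, against 0.284% and 0.154% of the 41575 rows with a count. Those 41575 include any rows that its own filter left without an adjusted p. With no low-count filter applied, 2 members were called higher by edgeR, against 0.0433% of rows. Without overlap of the 2 groups, 36 members (18.0%) were higher in BL and 0 were lower, against 2% and 1.52% of all rows tested. Among the other NONCODE rows of any level, 117 of 2661 were higher in this way and 15 were lower. Among rows that are no NONCODE rows, 270 of 18313 were higher and 306 lower. Neither this count nor the DESeq2 calls were set against rows at the members' level. Whether these 2 counts are particular to the members was therefore not tested.

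**Figure D4:**
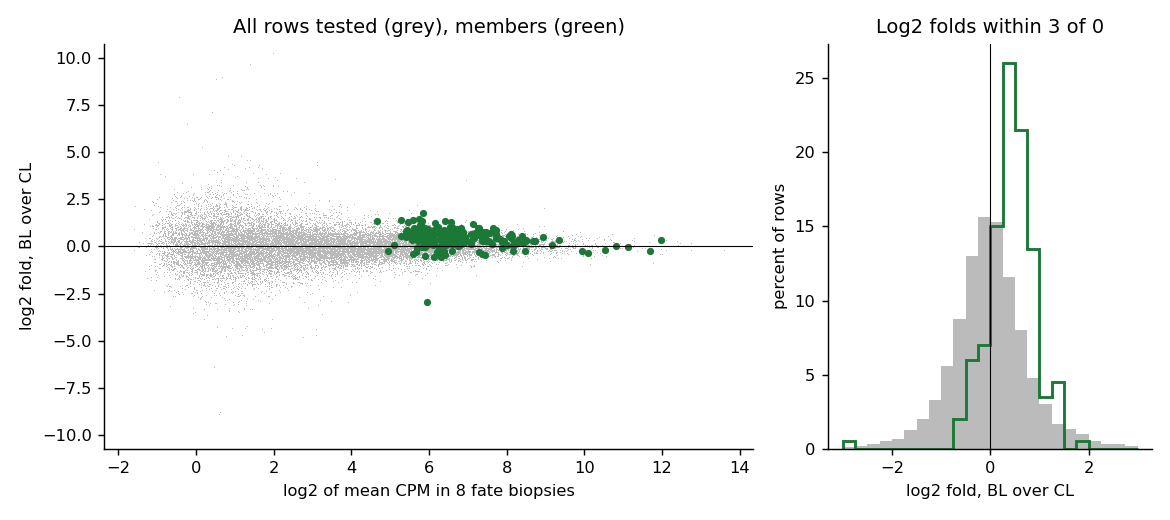
Left, log2 fold of BL over CL biopsies against the log2 of the mean CPM for all 21174 rows tested (grey) and the 200 members (green). Right, the percent of rows per bin of log2 fold; the members' outline lies to the right of 0, with 169 of 200 positive.

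The other NONCODE rows had the same tilt, while Ensembl, LOC and symbol rows did not. Of the 2661 other NONCODE rows tested, 64.6% were positive, with a median of 0.31. At the members' level of 25.2 CPM or more, the 210 other NONCODE rows had 79.0% positive and a median of 0.47. Ensembl rows at that level had 45.3% positive and a median of -0.05, LOC rows 45.0% and -0.05, and rows with a symbol 39.5% and -0.08. The difference is therefore not particular to the 200.

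By abundance, the first 10 members had 5 positive and a median of -0.003. Ranks 11 to 50 had 37 of 40 positive and a median of 0.33. Ranks 51 to 100 had 42 of 50 and 0.43, and the last 100 had 85 of 100 and 0.50. In the block of 8 the most abundant row NONBTAG017444.2 had 4674, 6527, 4178 and 2741 CPM in B20, B21, D24 and D27 and 6565, 1757, 3093 and 2510 CPM in B14, B23, D10 and D29. B14 stood far above the other 3 CL biopsies, and the log2 difference was 0.35 (SE 0.40).

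For NONBTAG017440.2, B14 had 6659 CPM and the other 3 CL biopsies 2198 to 2811, with 2160 to 3939 in BL biopsies. Its log2 difference was -0.24 (SE 0.35) and 0.31 without B14. The signs of NONBTAG017438.2 (-0.02, SE 0.36), NONBTAG017441.2 (-0.17, SE 0.31) and NONBTAG017442.2 (-0.34, SE 0.43) likewise turned without B14, to 0.41, 0.21 and 0.48. NONBTAG017439.2 was at 0.02 (SE 0.37).

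The remaining 4 of the first 10 lie outside the block. NONBTAG014617.2 had 711, 611, 768 and 861 CPM in B20, B21, D24 and D27 and 590, 587, 561 and 533 CPM in B14, B23, D10 and D29. Every BL biopsy was above every CL biopsy, by a log2 difference of 0.36 (SE 0.19). NONBTAG004473.2 had 0.51 (SE 0.32), NONBTAG003602.2 0.26 (SE 0.25) and NONBTAG011863.2 -0.25 (SE 0.26), and the groups of these 3 overlapped.

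Among members with higher levels in BL, NONBTAG015108.2 had the smallest p. It stood at 158, 169, 265 and 202 CPM in B20, B21, D24 and D27 and at 80.7, 83.5, 81.1 and 93.8 CPM in B14, B23, D10 and D29. The groups did not overlap and the ratio of their means was 2.34. The log2 difference was 1.21 (SE 0.23), with an adjusted p of 0.485 in edgeR and 0.00064 in DESeq2.

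NONBTAG011972.2 was next, at 122, 97.5, 154 and 122 CPM in BL and 53.9, 66.4, 35.4 and 36.0 CPM in CL biopsies, in the same order of libraries. These groups did not overlap either. The log2 difference was 1.37 (SE 0.27), with an adjusted p of 0.485 in edgeR, 0.0438 in edgeR without the filter and 0.00076 in DESeq2. Its numbered neighbour NONBTAG011973.2, named after its values were seen, had 85.3, 71.6, 100 and 68.9 CPM in BL and 32.6, 40.0, 23.2 and 31.1 CPM in CL biopsies.

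The largest positive log2 difference, 1.78 (SE 0.38), belonged to NONBTAG022372.1, likewise named after its values were seen. It had 66.8, 106, 89.6 and 91.1 CPM in B20, B21, D24 and D27 and 11.3, 34.0, 38.4 and 19.8 CPM in B14, B23, D10 and D29. Its adjusted p was 0.485 in edgeR, 0.00791 in edgeR without the filter and 0.00665 in DESeq2. All 4 BL biopsies were above all 4 CL biopsies.

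Among members with lower levels in BL, NONBTAG000520.2 had the second smallest p. It had 32.8, 40.5, 73.1 and 79.9 CPM in B20, B21, D24 and D27 and 83.5, 107, 77.6 and 68.7 CPM in B14, B23, D10 and D29. The groups overlapped and the log2 difference was -0.58 (SE 0.31), not called by edgeR.

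NONBTAG015217.2 had the smallest p of the lower members and fell into separate levels. It had 12.4, 6.59, 19.04 and 19.5 CPM in B20, B21, D24 and D27, and 12.6 in B14, 141 in B23, 259 in D10 and 21.05 in D29. Only B23 and D10 were high, so the groups overlapped. The log2 difference was -2.96 (SE 0.78), with an adjusted p of 0.717 in edgeR and 0.0254 in DESeq2, and it was -1.89 without D10.

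The same row was split by oocyte number in the matched set. It had 19.9 CPM in oocyte 2, 17.8 in oocyte 3, 264 in oocyte 6 and 182 in oocyte 16, and 23.7, 29.2, 141 and 164 CPM in the biopsies of those numbers. High and low libraries carried the same numbers in both kinds of sample. LOC100849050, whose ooplasm counts stayed within 7.30% of this member's, had 56.0 CPM in granulosa cells of follicle B23 and 54.3 in those of D10, against 4.07 to 9.53 in the other 6 follicles. In the 8 cumulus libraries it was at 5.02 to 10.6 CPM. This pattern was noticed in the values and was not tested.

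**Figure D5:**
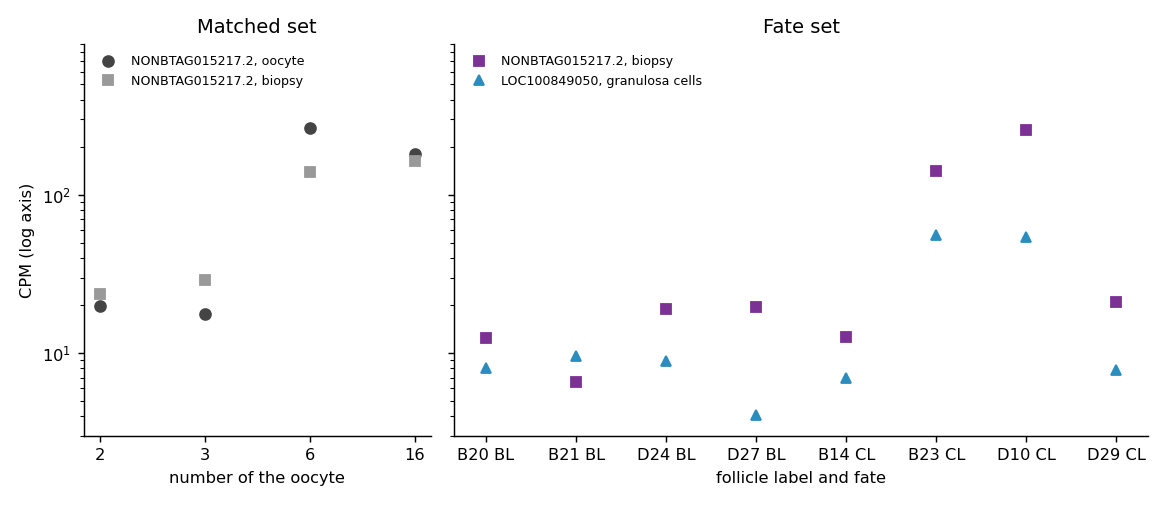
Left, CPM (log axis) of NONBTAG015217.2 in the 4 oocytes and the biopsies of the same numbers. Right, CPM of NONBTAG015217.2 in the 8 fate biopsies and of LOC100849050 in granulosa cells of the same follicles; B23 and D10 are high in both.

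The median deviation of the members from their mean over the 8 biopsies was 0.07 to 0.46 log2 in BL and -0.46 to 0.02 in CL biopsies. It is the members' own difference, and the fates did not overlap in it. The measures of the libraries that follow overlapped between the fates. Totals, in the same units as above, were 17.5 to 20.6 in BL and 16.8 to 22.6 in CL biopsies, rows with at least 5 counts were 23114 to 24667 and 19993 to 25274, and the 10 most abundant rows took 5.40% to 7.01% and 5.74% to 7.63% of counts. H1FOO was at 951 ± 189 CPM in BL and 1132 ± 318 CPM in CL biopsies (SD, n = 4 each). The part of these measures in the members' difference was not tested.

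For comparison, 10 of the 44 symbols on a list drawn up for noncoding RNAs matched a row, and 6 of them were tested between the fates. The list also holds the protein-coding genes GAS6 and NNAT, which matched no row. None of the 6 was called by edgeR and none had an unadjusted p under 0.05, with a median log2 difference of 0.50. XIST, MEG3, MEG8 and SNHG4 had group means of only 0.440 to 2.34 CPM in the fate biopsies. Their log2 differences ran from -1.38 to 2.09, with SE of 1.23 to 1.47, so nothing is read from the median. TUG1 was at 60.7 ± 10.1 CPM in BL and 40.7 ± 13.3 CPM in CL biopsies (SD, n = 4 each), a log2 difference of 0.54 (SE 0.31). Its member row NONBTAG006101.2 had 66.9, 48.7, 62.2 and 68.6 CPM in BL and 63.5, 34.0, 38.1 and 32.4 CPM in CL biopsies, and the groups overlapped through B14.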

How the data were processed

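Kits named in the labels' protocols for RNA are SMART-Seq HT and Nextera XT. The submitters' processing notes name Trim Galore, cutadapt, STAR and featureCounts. Their versions, the genome build, the annotation and the strand setting were "not given in the sources used here". Each table deposited by the authors holds whole-number counts per row, and no count was altered. The polar body table has 24 value columns whose headings name no sample, and it was not used.

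CPM are counts per 1000000 counts of a library, without further scaling. Members and lists were chosen with earlier results of these data known. For each comparison, all rows of its 8 libraries entered edgeR 4.0.16 in R 4.3.3 (filterByExpr, TMM, robust quasi-likelihood F test). Calls needed a p under 0.05 after Benjamini-Hochberg adjustment over all rows tested. The script was tested on simulated data. DESeq2 1.42.0 (Wald test, every row with a count), other scalings, no filter, each library left out, the label letter as a covariate and the pair number as a block were alternatives. Fits of the members in granulosa and cumulus cells were planned and not run, because all members are listed at 0 there.

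Members were named by rule: the first 10; the 2 of smallest p per direction and fit; the rows on either side of the border of the set; the extremes of variation within the first 50; and the 2 with the largest share from 1 oocyte. Others are said to be named after their values were seen. Within groups, all 24 pairs of libraries differed beyond counting noise (lowest chi-square 44.6 for each degree of freedom). Over 17305 rows, the deviations of same-numbered biopsies and oocytes correlated at 0.19 to 0.31, over the bound of 0.1 in all 4 pairs, so the numbers are read as marking pairs. The fit whose values are printed has no pair term, and the fit with the pair number as a block is an alternative. Oocyte 16 with biopsy 6 reached 0.22 and oocyte 6 with biopsy 16 reached 0.23, so these pairs are not separated by the check.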

Additional observations from a re-analysis of the deposited data

Results flagged for a closer look

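In 104 groups of 4 libraries examined for a library far from the others, 4 stood out, where chance gives about 1 in 20. In CL biopsies, B14 was far above the rest for NONBTAG017440.2 (6659 CPM, next 2811) and NONBTAG017442.2 (2721 CPM, next 875). For NONBTAG006101.2, biopsy 16 was far below the other matched biopsies (19.97 CPM, next 37.0). For NONBTAG003513.2, at rank 200, oocyte 2 was far above the other oocytes (97.8 CPM, next 47.5), and that row left the set when oocyte 2 was left out of the rule. No cause of these values was tested.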

How the results depend on the processing

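Between the fates, members called by edgeR numbered 0 in the fit as given, 2 without the filter and 13 with DESeq2. Leaving out each library in turn left 0 called, 156 to 176 members positive, 36 to 63 higher at an unadjusted p under 0.05 and medians of 0.35 to 0.48. Over all rows in those fits, 363 to 822 were higher, of 22216 to 22860 tested. Counting near-identical members once (188, chosen after seeing the data), 158 were positive and 55 of them higher at an unadjusted p under 0.05. Members that moved together at different levels still counted separately. Of the 41 consecutive pairs, 31 had a correlation of 0.9 or more but only 11 were within 0.3 log2. The 188 are therefore not independent of each other. For matched biopsies against oocytes, DESeq2 called 1 member. With library totals alone 87 were positive and 5 lower at an unadjusted p under 0.05, beside 250 of 18540 rows. Without the filter 19 were lower, beside 2515 of 37247 rows. Leaving out 1 library gave 40 to 83 positive and 4 to 19 lower: 4 without oocyte 6 or biopsy 3, 7 without biopsy 6 and 19 without biopsy 2. Over all rows in those fits, 274 to 913 were lower, of 19089 to 19582 tested. With the replicate block on the pair number, 0 members were called and the median was -0.18, so no call changed. At an unadjusted p under 0.05, 16 members were lower, beside 738 of 18540 rows.

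The summed share in BL biopsies was 4.26%, and 2.80% without the block of 8. It was 4.55% with each library's 10 most abundant rows taken out of the library total but not out of the members, which can only raise it. In CL biopsies the share was 3.59% and 2.16% without the block. The rule kept 184 to 196 members without 1 oocyte. Signs turned between the fates for 5 rows of the block: NONBTAG017438.2 was at 0.0204 with library totals alone and -0.24 to 0.41 with 1 library left out, NONBTAG017440.2 at -0.42 to 0.31, NONBTAG017441.2 at -0.35 to 0.21, NONBTAG017439.2 at -0.21 to 0.48 and NONBTAG017442.2 at -0.57 to 0.48. The causes were not tested.

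Fits in granulosa and cumulus cells, with their alternatives, were not run.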
